A study of Drosophila melanogaster with 2 samples.

Results

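Transcripts of the Jun N-terminal kinase (JNK) pathway and of the transcription factor AP-1 were followed in the posterior midgut of Drosophila melanogaster after knockdown of Gli, whose product gliotactin sits at the corners where epithelial cells meet. The group holds 9 genes, chosen by name: egr, msn, slpr, hep, bsk, kay, Jra, puc and Ets21C. Each was found as 1 locus in the deposited transcript table, so that 9 of 13822 loci and 27 of 24047 transcript rows are described. A locus is represented by the transcript with the highest mean read count over the 6 libraries, and all 9 passed the filter on low counts.

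RNA came from posterior midguts of 9-day-old females of 1 strain, 5966GS-GAL4; UAS-Gli-RNAi, whose genotype field reads wild type. GeneSwitch GAL4 is a transcription factor that works only when the steroid RU486 is present, and here it drives a transgene whose double-stranded RNA targets Gli, in enterocytes (the absorptive cells) according to the labels. Flies given RU486 (RU+, induced) were compared with flies of the same strain given ethanol (RU-, uninduced control), so both groups carry the driver and the RNAi transgene. There are 3 libraries per condition, each called a biological replicate. Midguts were also pooled when RNA was extracted, and p-values here thus measure the spread between libraries, part of which may be technical. An effect of RU486 itself cannot be told apart from that of the knockdown, since a driver line without the RNAi transgene was not analysed here.

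In flies the pathway starts with Eiger (egr), the tumour necrosis factor (TNF) ligand, and with stress signals that reach a kinase cascade. Misshapen (msn), a Ste20-type MAP4K, acts on MAP3Ks such as Slipper (slpr). These activate Hemipterous (hep), the MAP2K, which phosphorylates Basket (bsk), the JNK itself. JNK acts on Jra (Jun) and kay (Fos), the subunits of AP-1. puc encodes a phosphatase that is a transcriptional target of the pathway and inactivates JNK, and Ets21C encodes an ETS family transcription factor induced by JNK signalling in several fly tissues. In the midgut the pathway is known for responses to stress and damage and for a role in stem cell proliferation. The kinases are regulated by phosphorylation, which transcript counts do not measure.

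Library totals, with 1 transcript per locus, ran from 8111031 to 14303722 reads in RU+ and from 6821908 to 10914491 in RU-, and the 9 genes together held between 4827 and 20000 reads of a library. Gli had a normalised count (its reads over the library's scaling factor) of 882, 895 and 919.9 in RU+ and of 2066, 1973 and 1847 in RU-, a log2 fold change of -1.13 (adjusted p = 1.25e-09, quasi-likelihood test of edgeR). The enterocyte markers nub, Myo31DF, mex1 and cad were read in both conditions, with a summed level of 13062 to 13343 in RU+ and 10777 to 11368 in RU-. Of these nub and mex1 rose (log2 fold changes 0.64 and 0.38), while Myo31DF (0.06) and cad (-0.12) did not pass an adjusted p of 0.05. Control replicate 3 stood apart: its counts departed from those of the other controls with a chi-square per degree of freedom of 8.13 and 9.45, against 2.01 between the other controls and 1.27 to 2.47 among the RU+ libraries.

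Of the 9 genes 8 rose on induction of Gli-RNAi and 0 fell at an adjusted p under 0.05, whereas 27.6% of the 8236 genes tested rose and 26.8% fell. In each of those 8 genes every RU+ library lay above every RU- library, as it did in 31.6% of all genes tested. The median log2 fold change (RU+ over RU-) of the 9 was 0.49, against 0.03 over all genes tested. The changes were moderate, from 1.16-fold for hep to 2.32-fold for Ets21C. Both genes with at least a 2-fold rise, kay and Ets21C, encode transcription factors, and 5.55% of all genes tested rose that much. slpr was the member that did not pass. With library totals in place of the scaling that balances the genes (TMM) the median of all genes shifted by 0.19, and 8 of the 9 rose and 0 fell, against 45.4% and 18.4% of all genes. Without control replicate 3, 8 of the 9 rose and 1, slpr, fell, against 29.3% and 29.6%.

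**Figure D1:**
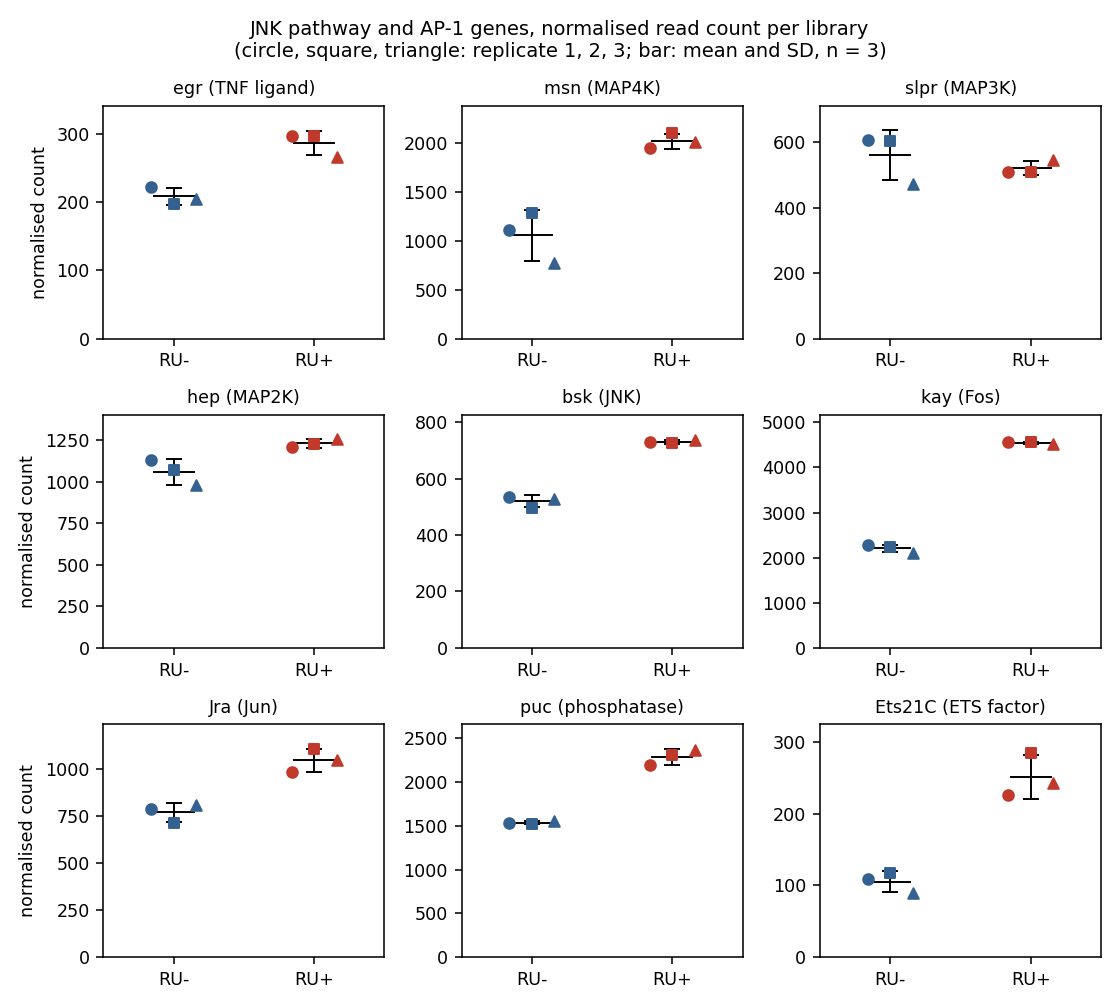
Normalised read count (vertical axis, from 0) of each of the 9 genes in the 3 RU- and 3 RU+ libraries, with mean and SD. The 2 groups of libraries are separate for every gene but slpr, and control replicate 3 (triangle) is the lowest control for msn, slpr, hep, kay and Ets21C.

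The ligand gene egr had normalised counts of 296, 297 and 266 in RU+ and of 223, 198 and 204 in RU-. The lowest RU+ library was above the highest control. The means were 286 ± 17.9 and 208 ± 12.9 (SD, n = 3), and egr rose by 0.47 ± 0.086 (log2, SE; edgeR adjusted p = 3.49e-04), a 1.38-fold change. In the deposited table, whose genome build is not named, the egr transcript lies on chromosome 2R, plus strand, between 5965870 and 5971690, with 7 exons.

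The 4 kinase genes of the cascade changed by different amounts. msn, at the top, had counts of 1946, 2099 and 2012 in RU+ and of 1107, 1289.5 and 778 in RU-. The RU+ libraries lay close together and the controls far apart, with control replicate 3 the lowest. msn rose by 0.92 ± 0.122 (1.89-fold, edgeR adjusted p = 2.04e-05), and by 0.74 without control replicate 3. Its transcript has 19 exons between 2555775 and 2586540 of chromosome 3L, minus strand.

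slpr, a MAP3K gene, had counts of 509.5, 509.0 and 546 in RU+ and of 607, 605 and 474 in RU-. The groups overlapped, because control replicate 3 was below all RU+ libraries while the other controls were above them. The log2 fold change was -0.12 ± 0.089 (95% interval -0.31 to 0.07, edgeR adjusted p = 0.284). Without control replicate 3 it was -0.22 with an adjusted p of 0.00231, so that the call for this gene rests on that library, and with library totals as scaling it was 0.07 (adjusted p = 0.543). The transcript spans 8064408 to 8071187 on the minus strand of chromosome X in 9 exons.

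hep, the MAP2K gene, had counts of 1206, 1224 and 1258 in RU+ and of 1127, 1068.5 and 977 in RU-. The highest control and the lowest RU+ library were close, but the groups did not overlap. hep rose by 0.22 ± 0.063 (1.16-fold, edgeR adjusted p = 0.0102), the smallest change among the 8 genes. Without induced replicate 3 it did not pass (log2 fold change 0.20, adjusted p = 0.0535). The transcript spans 12973748 to 12984466 on the minus strand of chromosome X in 10 exons.

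bsk, which encodes the JNK, had counts of 729.5, 724 and 738 in RU+ and of 536, 495 and 528 in RU-. The spread within each condition was small next to the gap between them. The means were 730.5 ± 6.69 and 519.9 ± 21.6 (SD, n = 3), and bsk rose by 0.49 ± 0.064 (1.41-fold, edgeR adjusted p = 1.48e-05). The transcript has 7 exons between 10247502 and 10250479 of chromosome 2L, minus strand.

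Among the AP-1 genes, kay (Fos) changed more than Jra (Jun). kay had counts of 4554, 4559 and 4514 in RU+ and of 2270.4, 2232 and 2113 in RU-. It was the most tightly replicated of the 9 in RU+ for its level, with a mean of 4542 ± 24.4 against 2205 ± 81.8 (SD, n = 3). kay rose by 1.04 ± 0.049 (2.06-fold, edgeR adjusted p = 3.75e-10), which placed it at percentile 94.8 of the log2 fold changes of all genes tested. The transcript counted spans 25608333 to 25619838 on the plus strand of chromosome 3R in 3 exons.

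Jra had counts of 986, 1105.5 and 1049 in RU+ and of 791, 714 and 809 in RU-. All RU+ libraries were above all controls, with induced replicate 2 the highest. Jra rose by 0.44 ± 0.070 (1.36-fold, edgeR adjusted p = 9.34e-05). Its transcript spans 5984442 to 5986061 on the plus strand of chromosome 2R in 2 exons. In the Ensembl annotation of assembly BDGP6 2.38% of its exon bases are shared with RpLP0-like on the opposite strand, and the strand setting of the counting is not given in the sources used here.

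puc, the phosphatase gene commonly read as a reporter of JNK activity, had counts of 2189.8, 2305 and 2360.5 in RU+ and of 1537, 1522 and 1551 in RU-. The 3 controls lay within a narrow range, well below the lowest RU+ library. The means were 2285 ± 87.1 and 1536.5 ± 14.5 (SD, n = 3), and puc rose by 0.57 ± 0.052 (1.49-fold, edgeR adjusted p = 4.61e-07), at percentile 87.2 of all log2 fold changes. The transcript is the single one of its locus, from 3931057 to 3948023 on the plus strand of chromosome 3R with 4 exons.

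Ets21C had the largest log2 fold change and the fewest control reads of the 9. It had 357, 254 and 267 reads in RU+ and 78, 125 and 57 in RU-, or normalised counts of 226, 285 and 242 against 109, 117 and 88.8. Every RU+ library was well above every control. Ets21C rose by 1.21 ± 0.122 (2.32-fold, edgeR adjusted p = 1.25e-06). The transcript has 3 exons between 547414 and 552454 of chromosome 2L, minus strand. In BDGP6 28.3% of the exon bases of the gene are shared with nAChRbeta3 on the opposite strand, but in the deposited table the nAChRbeta3 transcripts end at 547096, short of the Ets21C span, and had a mean of 13.2 reads or less per library.

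**Figure D2:**
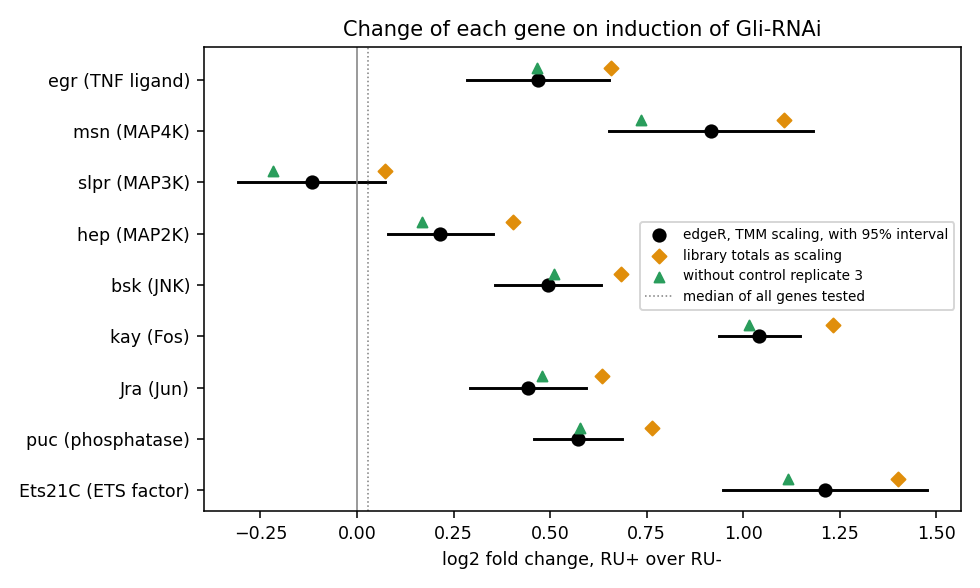
Log2 fold change, RU+ over RU- (horizontal axis), of each gene with its 95% interval, beside the value with library totals as scaling and the value without control replicate 3. The interval lies above 0 for 8 genes and spans 0 for slpr, whose value is 0.07 with library totals and -0.22 without control replicate 3.

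Levels of different genes were compared as normalised counts per kilobase of the transcript counted. In RU- kay was highest, at 690 ± 25.6 (SD, n = 3), which is above 85.2% of the genes tested. puc (526 ± 4.96) and Jra (509 ± 33.4) followed, with overlapping ranges. bsk stood apart from both neighbours at 344 ± 14.3. hep (215.5 ± 15.4) and msn (193 ± 47.2) overlapped, as did slpr (108.5 ± 14.8) and egr (97.2 ± 6.04). Ets21C was the lowest, at 51.9 ± 7.19, above 28.8% of the genes tested.

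The order shifted in RU+. kay stood at 1422 ± 7.65 counts per kilobase, puc at 782 ± 29.8, Jra at 690.5 ± 39.4 and bsk at 483 ± 4.42, with no overlap between neighbours. msn, at 368 ± 14.0, was now above hep, at 250.5 ± 5.39. egr (134 ± 8.35) and Ets21C (124 ± 15.1) overlapped and both were above slpr, which was last at 101 ± 4.11. Thus Ets21C moved from the lowest place to a level like that of the ligand gene, above 50.8% of the genes tested.

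**Figure D3:**
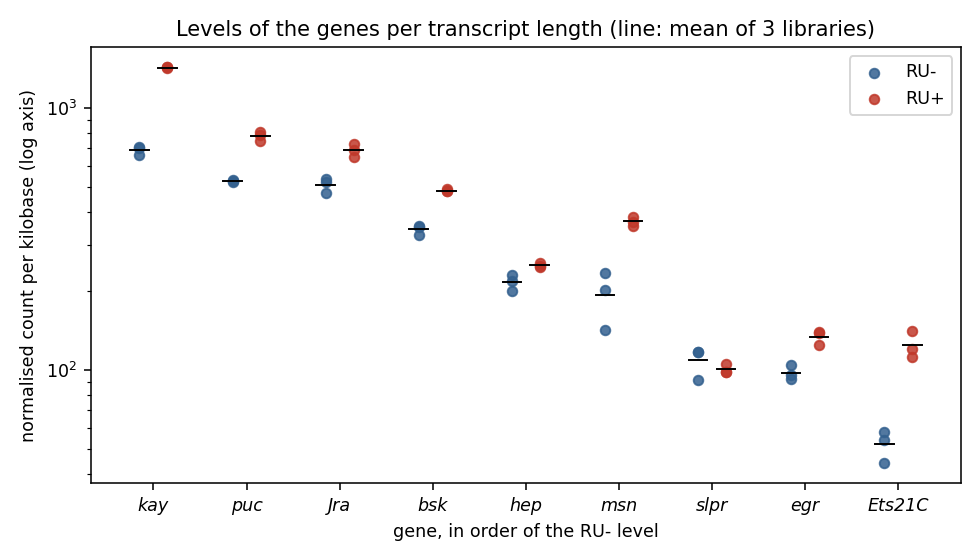
Normalised count per kilobase (vertical log axis) of the 9 genes in the 3 RU- and 3 RU+ libraries, ordered by the RU- level, with the mean as a line. kay is highest in both conditions, msn passes hep in RU+, and slpr is last in RU+.

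Ratios of 2 genes within a library do not depend on the scaling between libraries, and 5 were computed, chosen after the values above were seen. The ratio of kay to Jra, in counts per kilobase, was 2.19, 1.96 and 2.04 in RU+ and 1.36, 1.48 and 1.24 in RU-. The ranges did not overlap, and the ratio was higher in RU+ by 0.60 on the log2 scale (exact two-sided permutation test, p = 0.10, the smallest that 3 libraries against 3 allow; Benjamini-Hochberg adjusted over the 5 ratios, 0.167). The ratio of msn to slpr was 3.60, 3.89 and 3.48 against 1.72, 2.01 and 1.55, higher by 1.06 (same exact p = 0.10, adjusted 0.167). That of hep to bsk was 0.510, 0.521 and 0.526 against 0.648, 0.665 and 0.570, lower in RU+ by a log2 difference of -0.27 (exact p = 0.10, adjusted 0.167).

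The phosphatase and its substrate kept closer to each other. The ratio of puc to bsk was 1.55, 1.65 and 1.66 in RU+ and 1.48, 1.59 and 1.52 in RU-, with overlapping ranges and a log2 difference of 0.08 (exact permutation p = 0.20, adjusted 0.20). The ratio of Ets21C to kay was 0.0782, 0.0986 and 0.0847 against 0.0759, 0.0828 and 0.0663, again with overlap (log2 difference 0.22, exact p = 0.20, adjusted 0.20). That difference was 0.12 without induced replicate 2 and 0.13 without control replicate 3. These tests, at this number of libraries, do not show that the members of either pair changed alike.

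**Figure D4:**
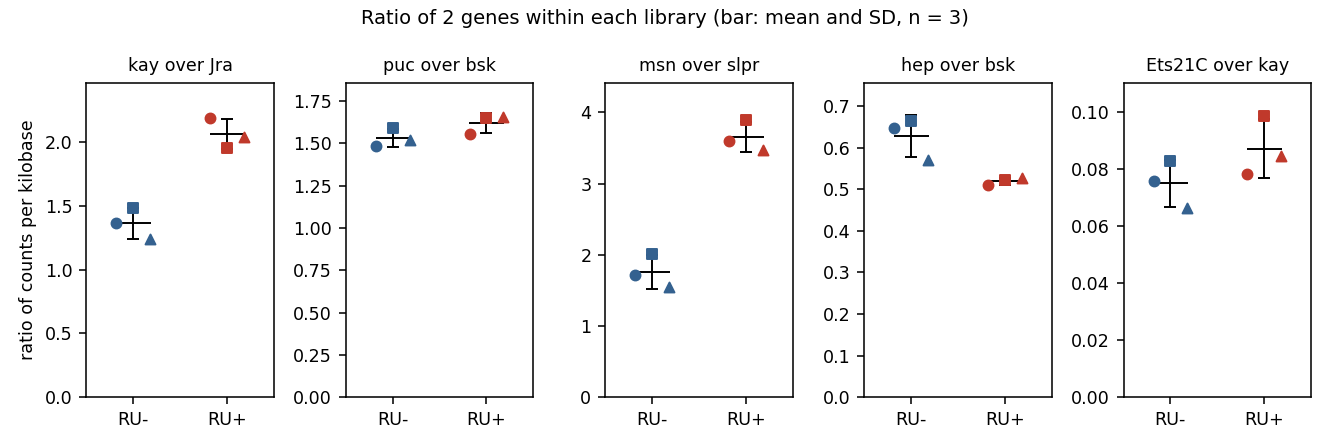
Ratio of the counts per kilobase of 2 genes within each library (vertical axes from 0; circle, square and triangle are replicates 1, 2 and 3), with mean and SD over 3 libraries. The RU- and RU+ libraries are separate for kay over Jra, msn over slpr and hep over bsk, and overlap for puc over bsk and Ets21C over kay.

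The transcripts of a locus were also examined one by one. Where transcripts share an exon its reads can count towards each, so the rows of a locus are not independent. Of the 27 rows 22 rose (edgeR on all transcript rows, adjusted p under 0.05), against 27.1% of the 16249 rows tested. The 4 kay transcripts begin at different positions (25592497, 25598701, 25608333 and 25615875) and end at the same one, and their log2 fold changes ran from 0.99 to 1.04. The 5 msn rows lay between 0.87 and 0.91 and the 4 bsk rows between 0.49 and 0.51. For Ets21C the shorter transcript, of 918 bases, had 1.36 ± 0.160 (log2, SE) and the longer, of 2025 bases, 1.21 ± 0.122. The difference between these rows, which can share reads, was not tested. None of the 4 slpr rows passed, with values from -0.12 to -0.11.

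hep is the member whose rows cover separate stretches of the gene. The 3′ transcript (12973240 to 12976752) and the 5′ transcript (12976841 to 12984453) are 88 bases apart in the deposited table. A long one (12973748 to 12984466) spans the 5′ transcript and overlaps the 3′ transcript without reaching its 3′ end. The 3′ transcript had 1179, 662 and 792 reads in RU+ and 497, 705 and 393 in RU-, with a log2 fold change of 0.16 ± 0.064 that did not pass (edgeR adjusted p = 0.0583). The 5′ transcript had 957, 523 and 714 reads against 369, 581 and 336, and rose by 0.21 ± 0.068 (adjusted p = 0.0223). The ratio of 5′ to 3′ reads per kilobase was 0.890, 0.866 and 0.988 in RU+ and 0.814, 0.903 and 0.937 in RU-, with overlapping ranges, so no shift between the ends of the gene was detectable.

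Other genes of signalling upstream of JNK moved in both directions. Of 17 listed genes, all tested, 7 rose and 3 fell, beside 27.6% and 26.8% of all genes tested, and the median log2 fold change was 0.10. The TNF receptor gene wgn rose by 0.44 ± 0.094 (log2, SE; edgeR adjusted p = 0.00128), from 174, 154 and 176 in RU- to 231, 237 and 208 in RU+. The other TNF receptor gene, grnd, named after its value was seen, had counts of 28.8 ± 3.16 and 28.4 ± 1.51 (adjusted p = 0.953). The MAP3K gene Tak1, also named after its value was seen, rose by 0.40 ± 0.089 (log2, SE; edgeR adjusted p = 0.0016), from 617, 602 and 472 to 711, 777 and 764. Without control replicate 3 the rise of Tak1 was smaller, at 0.30, and still passed (edgeR adjusted p = 1.65e-05). Mekk1, another MAP3K gene, did not pass (-0.17, adjusted p = 0.205), but its call rests on control replicate 3, without which it fell by 0.30 (adjusted p = 2.26e-06). Mkk4, the other MAP2K gene acting on JNK, did not pass (0.10, adjusted p = 0.286), though it rose with library totals as scaling (0.29, adjusted p = 0.00873).

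The 3 that fell upstream were Tab2, POSH and Gadd45, named after their values were seen, at log2 fold changes of -0.35, -0.41 and -0.28. Tab2 encodes an adaptor of the MAP3K Tak1, POSH a scaffold of JNK signalling and Gadd45 an activator of MAP3Ks. In BDGP6 POSH shares 7.16% of its exon bases with UQCR-6.4 on the opposite strand, a gene with a mean of 723 reads per library, and grnd shares 13.1% with kon (82 reads), and reads of the pairs over the shared bases cannot be told apart if strand was not used. With library totals as scaling 0 upstream genes fell, beside 18.4% of all genes tested. Without control replicate 3 the number was 6, beside 29.6% of all genes tested.

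All 6 tested genes of the list of scaffolds and negative regulators rose (0 fell, median 0.37), beside 27.6% of all genes tested, and a further 2 were below the filter. raw, a negative regulator of JNK signalling in the embryo, went from 945, 968 and 749.7 in RU- to 2029, 2106 and 2110.1 in RU+, a rise of 1.22 ± 0.080 (log2, SE; edgeR adjusted p = 1.32e-08), beside 1.21 for Ets21C. syd, a scaffold gene of the JIP family, rose by 0.73 ± 0.070, aop, an ETS repressor gene, by 0.42 ± 0.083 and CYLD, a deubiquitinase gene with 15% of its exon bases shared with an antisense RNA gene in BDGP6, by 0.32 ± 0.085. Genes of negative regulators (raw, puc) and of activating kinases (msn, bsk) were both among those that rose.

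Genes listed as JNK targets in one or another fly tissue also answer, for the most part, to other pathways. Of 13 listed 8 were tested, of which 6 rose and 2 fell (median log2 fold change 0.96), beside 27.6% and 26.8% of all genes tested (median 0.03), and the other 5 were below the filter. Pvf1, which encodes a ligand of the PDGF/VEGF receptor Pvr, had counts of 1966, 1985 and 1956 in RU+ and of 172, 181 and 173 in RU-, the largest rise of the list at 3.48 ± 0.067 (log2, SE; edgeR adjusted p = 6e-14). The cytokine gene upd3 had 150.5, 161 and 173 against 40.6, 71.2 and 49.9 and rose by 1.51. The filamin gene cher and the myosin II heavy chain gene zip rose by 1.27 and 1.09, and the matrix metalloprotease gene Mmp1 by 0.83.

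The genes of the target list that fell, named after their values were seen, were foxo, at -0.73 ± 0.064, and the cell death gene hid, at -0.30 ± 0.076. The gene foxo encodes a transcription factor, and whether JNK controls its transcript was not tested here. With library totals as scaling hid no longer passed (-0.11, adjusted p = 0.211). The cell death gene rpr and the growth-delay gene Ilp8 were near absent: rpr had 8 reads over the RU+ libraries and 5 over the controls, and Ilp8 had 1 and 4. Both were below the filter, and no difference was detectable at this depth. The others below the filter, named after their values were seen, were upd2, scaf and upd1. Their mean normalised counts were 7.87 in RU+ and 3.38 in RU- for upd2, 7.21 and 5.87 for scaf, and 0.72 and 0.31 for upd1. These differences were not tested.

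The sister MAP kinase cascades, listed for comparison, gave mixed calls, to be read beside the 27.6% and 26.8% of all genes that rose and fell. In the p38 branch 2 of 5 genes rose and 0 fell (median 0.05): the p38 kinase genes p38c and p38a rose by 0.67 ± 0.085 and 0.58 ± 0.068, while p38b (-0.06) and the upstream kinase gene lic (0.01) did not pass. lic rose by 0.20 (adjusted p = 0.021) when libraries were scaled by their totals. p38b shares 20.9% of its exon bases, and ksr of the ERK cascade 15.2%, with a gene on the opposite strand in BDGP6. In the ERK cascade 4 of 6 tested rose and 0 fell (median 0.32), led by the ERK phosphatase gene Mkp3 at 0.92 ± 0.086. Ras85D and Dsor1, the MAP2K gene, rose by 0.40 and 0.35, while the Raf gene phl (-0.02) and ksr (0.17) did not pass. The fourth call, Sos, was narrow (0.28, edgeR adjusted p = 0.0488): without control replicate 3 its log2 fold change was 0.13 (adjusted p = 0.0997), and without any single RU+ library the adjusted p lay between 0.0672 and 0.14. ksr was at 0.10 without control replicate 3 and passed with library totals as scaling (0.36, adjusted p = 0.00727). No test of a difference between the cascades was made.

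**Figure D5:**
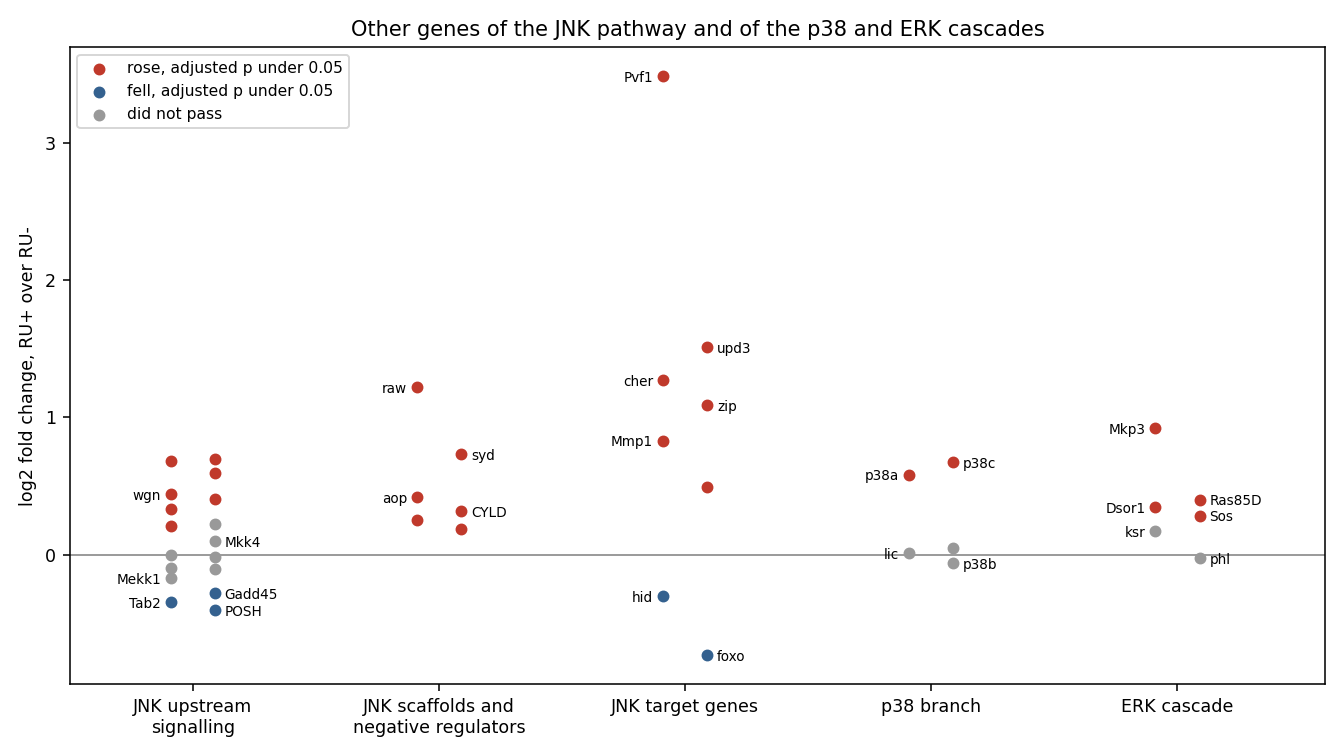
Log2 fold change, RU+ over RU- (vertical axis), of the tested genes of 5 lists, coloured by whether they rose, fell or did not pass at an adjusted p under 0.05. Pvf1 stands highest at 3.48. All 6 tested genes of the list of scaffolds and negative regulators are above 0, and the upstream list runs from -0.41 (POSH) to 0.69.

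The whole tissue was sequenced, so fewer cells of a type and less RNA per cell cannot be told apart, and neither can the cells in which the JNK genes changed. Counts of markers that rose or fell are to be read beside 27.6% and 26.8% of all genes tested. Those shares were 45.4% and 18.4% with library totals as scaling, and 29.3% and 29.6% without control replicate 3. All 5 progenitor markers (esg, Dl, Sox21a, sna and E(spl)m3-HLH) rose, and their summed level was 3318 to 3508 in RU+ against 1071 to 1212 in RU-. Of the 4 enterocyte markers 2 rose and 0 fell. With library totals 3 rose, and 1 fell with DESeq2 size factors as scaling or without control replicate 3. Of the 5 enteroendocrine markers 0 rose and 2 fell, with sums of 2804 to 2888 against 3093 to 3139, while 2 rose with library totals as scaling and 1 without control replicate 3. Of 4 visceral muscle markers 0 rose and 2 fell (5576 to 5869 against 5863 to 6608), but scaling by library totals gave 1 that rose and 0 that fell, and 0 fell without induced replicate 1 and 1 without each of induced replicates 2 and 3 and control replicates 1 and 2. Among haemocyte markers, 3 of 5 tested, 1 rose and 0 fell, with sums of 176 to 185 against 165 to 186, and eater, one of those that define the cells, had 0 reads. Of 3 tracheal markers 1 rose, or 2 with library totals as scaling or without control replicate 2 (121 to 147 against 57.7 to 88.0), both copper cell region markers fell (803 to 826 against 1245 to 1272), and all 3 hindgut and Malpighian tubule markers fell (71.4 to 80.7 against 344 to 416). The part of these shifts in the JNK and AP-1 results was not tested.

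Genes with the most similar pattern to puc and kay were ranked by the Euclidean distance between centred log2 CPM over the 6 libraries. Nearest to puc were flr, an actin-regulating gene, at a distance of 0.0674 and a log2 fold change of 0.59, CG10638 at 0.0796 (0.63), and a locus shared by grp and squ at 0.0654 (0.56), whose reads cannot be assigned to one gene. Nearest to kay were Snx6, a sorting nexin gene, at 0.0796 (1.06), Npc1a, a sterol transport gene, at 0.0808 (1.08) and tmod, a tropomodulin gene, at 0.0969 (1.08). With 2 conditions such a distance mostly reads the size of the change.

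The authors' deposited table lists 8 of the 9 genes among its changed genes. Its mean log2 fold changes over transcripts were 1.33 for Ets21C, 1.01 for kay, 0.89 for msn, 0.55 for puc, 0.48 for bsk, 0.44 for egr, 0.42 for Jra and 0.20 for hep. The authors' deposited table gives adjusted p-values from 0.185 to 0.264 for the slpr transcripts and from 0.0261 to 0.14 for those of hep.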

How the data were processed

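Poly(A) RNA of posterior midguts was sequenced in 3 libraries per condition. Read counts per transcript are as deposited by the authors, per the file headers. DESeq is named in the submitters' processing notes. No aligner, strand setting or genome build is given in the sources used here. The authors' deposited length-scaled signal was used only to check the order of levels, and the authors' log2 fold changes and p-values only where named. List genes were matched by symbol or through Entrez identifiers with the RefSeq table of Release 6.

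Counts were tested with the quasi-likelihood test of edgeR 4.0.16 (R 4.3.3; TMM, default filter, Benjamini-Hochberg over 8236 genes, adjusted p under 0.05). SE is the absolute log2 fold change over the square root of F. The procedure was tested on simulated counts. The alternatives were other scalings, no filter, DESeq2 1.42.0, limma 3.58.1 (voom), sums over transcripts, a replicate block and leaving out each library. Named were Gli, all members, up to 4 genes that passed and 2 that did not per list, upd3, Mmp1, Ilp8 and rpr, and the 3 genes most like puc and kay. The members, lists and tests were chosen with earlier results of these data known. Listed genes with no locus found were not analysed here. Of the upstream genes that passed, some named by this rule are not reported here.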

Additional observations from a re-analysis of the deposited data

How the results depend on the processing

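Over 47 genes, those of the naming rule and Tak1, Tab2, POSH, Gadd45, foxo and hid, 705 fold changes under the alternatives were computed, of which 679 kept their direction and their side of the threshold, 11 no longer passed, 5 passed newly and 10 changed sign. None of the sign changes concerned a gene that passed in the main setting. With library totals as scaling the sign changed for slpr (0.0719), Mekk1 (0.0168), p38b (0.13) and phl (0.16), and phl lay between -0.0598 and 0.0251 over the settings that leave out a library. lic, near 0 throughout, was at -0.00561 with DESeq2 size factors, at -0.00459 with the DESeq2 Wald test and between -0.00842 and 0.041 when a library was left out, below 0 without induced replicate 2, control replicate 1 or control replicate 2. In all, 3737 genes (45.4%) rose and 1512 (18.4%) fell with library totals. With them 0 upstream genes and 1 gene of the target list fell, since that scaling moves all values up by 0.19. Over the settings that leave out a library, 0 to 1 of the 9 JNK and AP-1 genes and 3 to 6 upstream genes fell. The higher values came without control replicate 3, where 29.6% of all genes tested fell. Between 7 and 8 of the 9 rose in every alternative run. Sos also lost its call with the DESeq2 Wald test (adjusted p = 0.0501) and with sums over transcripts (0.0781).

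The replicate numbers of the columns did not pair the libraries: deviations of same-numbered libraries correlated at -0.07, 0.02 and -0.07 over genes, and 0 of 6 libraries correlated best with its own number. With the replicate block 2168 genes rose and 2113 fell, and 8 of the 9 rose. Depth limits Ets21C most, with 57 reads in 1 control. The common coefficient of variation beyond counting was 0.0272 in RU+ and 0.0796 in RU-, and the edgeR test pools them. The RU- value includes control replicate 3, with a chi-square per degree of freedom of 8.13 and 9.45 against the other controls. Between those it was 2.01. With a variance per condition in limma-voom 8 of the 9 rose as well.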
